A study of Homo sapiens with 4 samples.

Results

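Interleukins and chemokines are the secreted proteins by which white blood cells signal to each other. The genes described here are interleukins, chemokines and their receptors named in the deposited table, without those that carry other symbols, such as ACKR3. They were chosen by symbol alone, as entries beginning IL, CCL, CXCL, CCR or CXCR with a digit, XCL1, XCL2, XCR1 or CX3C. Of 153 such entries 5 antisense transcripts were left out, and the remaining 148 entries are 146 genes, because CCL3L1 and CCL3L3, and likewise CCL4L1 and CCL4L2, share 1 gene identifier each. These are 146 of 60609 genes in the table, 43 of them chemokines, 18 chemokine receptors, 40 interleukins and 41 interleukin receptor chains. The other members are IL18BP, IL1RN and IL36RN, which are soluble binding proteins or antagonists, and IL4I1, which is an amino acid oxidase that carries an interleukin symbol and no cytokine.

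The cells were CCRF-CEM, an established line of human T cell leukaemia, in a derivative labelled CCRF-CEM/HA-AMPKa2. Cells of the No glucose group (2 libraries, ONG_9 and ONG_10) had been deprived of glucose for 24 hours, and those of the Ctrl group (2 libraries, CTRL_7 and CTRL_8) were labelled untreated. All 4 libraries came from the same HA-AMPKa2 line, grown in RPMI with serum, so each value is that of 1 leukaemia derivative. The promoter that drives the tagged subunit, and whether the line is a single clone, are not given in the sources used here. Total RNA was read from 1 end at 75 bases, and values are the authors' normalized counts, gene counts divided by 1 size factor per library.

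Receptors for most interleukins are assembled from a chain that binds 1 cytokine and a chain shared by several, such as the common gamma chain or gp130, and they signal through JAK kinases and STAT transcription factors. Receptors of the IL-1 and IL-17 families use adaptor proteins of their own instead. Chemokine receptors couple to inhibitory G proteins, steer cell migration, and are switched off by GRK kinases and arrestins. In developing and mature T cells these receptors are known for cytokine-dependent survival and for guiding cells between bone marrow, thymus, lymph node and tissue.

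The reads recovered per library numbered 19035535 and 20081266 in No glucose, and 96698709 and 24513840 in Ctrl. A single read was worth 1.52 and 1.40 normalized counts in ONG_9 and ONG_10, and 0.343 and 1.34 in CTRL_7 and CTRL_8, so low members are measured far more finely in CTRL_7. The labelled T cell identity was checked against 12 T lineage markers, of which 11 reached a mean of 10. Their summed level was 67124 to 68905 normalized counts in No glucose and 67660 to 69171 in Ctrl, while CD3E, CD247 and TRBC1 rose and CD3G and CD7 fell. Summed B cell markers were at 541 to 557 in No glucose and 915 to 934 in Ctrl, mainly CD79A, and 3 of 5 tested fell, with MS4A1 at 0 reads in 3 libraries. Myeloid markers summed to 34.9 to 60.3 and 42.2 to 46.8, and MPO, S100A8 and S100A9 had 0 reads throughout. NK cell markers summed to 28.8 to 32.3 and 12 to 13.7, with FCGR3A at 0 throughout, and NCAM1 was the only 1 of these 5 genes to rise. Markers of adherent stroma and epithelium summed to 415 to 455 in No glucose and 511 to 570 in Ctrl, nearly all of it EPCAM at means of 403 and 508. EPCAM and PDGFRB fell, and COL1A1 rose, to a mean of 16.4 in No glucose, against 2.37 in Ctrl. Erythroid markers summed to 3.03 to 7.02 and 4.81 to 5.35, with HBB and HBG1 at 0. The part of these markers in the results below was not tested.

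Most of the family had few or no reads. Of the 146 genes 46 had 0 reads in all 4 libraries, which allows up to 3 reads each, or 1.03 normalized counts in CTRL_7 and 4.55 in ONG_9. A further 58 had reads but stayed under a mean of 10 normalized counts in each group, and 42 reached that level in a group. Of all 60609 genes 18579 reached it, a similar share. Of these 42, 34 reached it in both groups, 6 in No glucose alone (CXCR3, CXCL16, IL2RA, IL31RA, IL7 and IL4I1) and 2 in Ctrl alone (CCR8 and XCL2). The 42 comprise 28 of 59 receptor genes, 12 of 83 ligand genes, IL18BP and IL4I1.

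**Figure D1:**
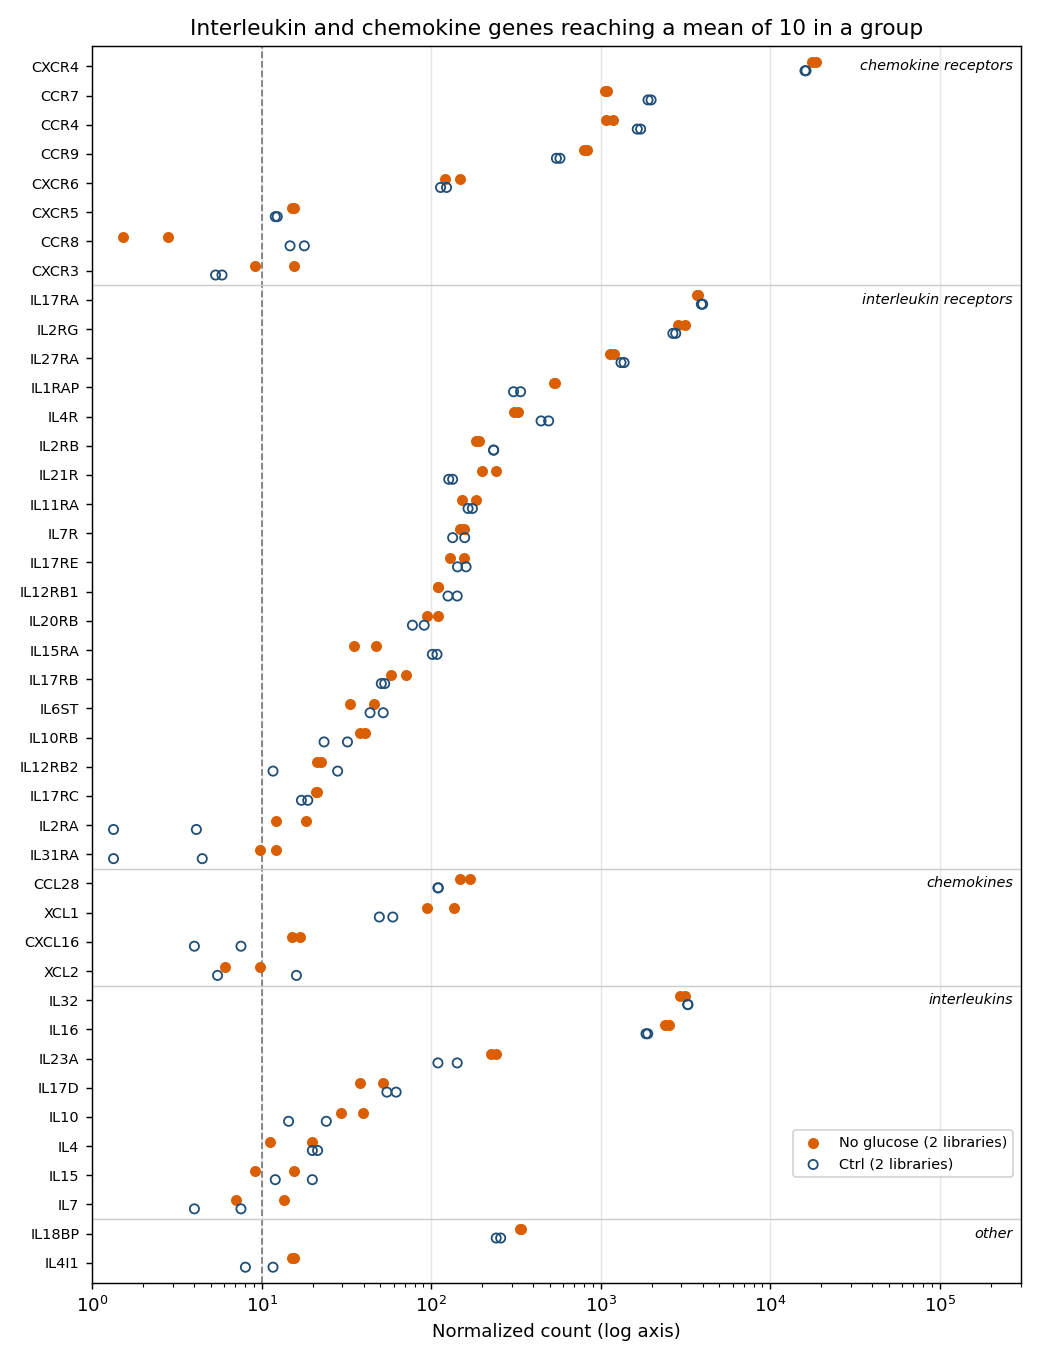
Normalized count (log axis) of the 42 genes that reached a mean of 10 in a group, in each of the 2 No glucose libraries (filled) and the 2 Ctrl libraries (open), grouped by role, with the level of 10 as a dashed line. CXCR4 lies above all others, and CCR8, at 1.52 and 2.81 without glucose, lies far to the left of its Ctrl values of 17.9 and 14.7.

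Several gene clusters had no member at a mean of 10. Clusters here are runs of at least 3 members with gaps under 500 kb, placed with GENCODE 29 on GRCh38. None of the 16 CC chemokine genes in the 2 clusters at chr17:34255218-34363231 and chr17:35871491-36212878 reached a mean of 10, and 13 of them had no read at all. None of the 6 CXC chemokine genes at chr4:73740506-74099293, the cluster of CXCL8 and CXCL1, reached it, nor did any of the 3 at chr4:76001275-76041415 (CXCL9, CXCL10 and CXCL11). The same held for the 9 genes of the IL1A to IL1RN cluster at chr2:112773915-113134016 and for the 6 genes from IL1R2 to IL18RAP at chr2:101991844-102452565. In the chemokine receptor cluster on chromosome 3, CCR9 and CXCR6 reached a mean of 10, while XCR1, CCR3, CCR1 and CCR2 did not. In the type 2 cytokine cluster at chr5:132060529-132682676 IL4 alone of IL3, IL5, IL13 and IL4 did.

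A few genes carried most of the family's reads. CXCR4, the receptor for CXCL12 that holds cells in the bone marrow, accounted for 48.1% and 47.2% of the members' reads in ONG_9 and ONG_10, and for 44.1% and 44.3% in CTRL_7 and CTRL_8. Together with IL17RA, IL32, IL2RG, IL16 and CCR7 it made up 82.9% and 82.6% in No glucose and 81.7% and 82.0% in Ctrl. Per kilobase of exon, CXCR4 stood at 8158 normalized counts in No glucose and 7270 in Ctrl. Next on that scale came IL2RG at 1092 and 986, IL32 at 949 and 1019, CCR7 at 428 and 775, and CCR4 at 364 and 544. The members took 0.133% of all reads in each No glucose library, against 0.111% and 0.110% in the Ctrl libraries. A share of reads is a scaling to library totals, under which the median log2 fold change of all tested genes was 0.24, against 0.04. In normalized counts the members summed to 37602 to 38509 in No glucose and 36228 to 36914 in Ctrl. Without CXCR4 the sums were lower in No glucose, at 19840.2 to 19982.1, against 20172.5 to 20632.2 in Ctrl.

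The question of the comparison is which of these genes differ after a day without glucose. The limma test was run on log2(normalized count + 1) across every gene whose mean over the 4 libraries was 1 or more, with p-values adjusted over all of them (Benjamini-Hochberg) and called under 0.05, and "rose" and "fell" below mean past that threshold. Adding 1 before taking logs tends to shrink the limma log2 fold changes of genes with few counts. Of the 146 members 71 were tested, 14 rose and 6 fell. That is 28.2% of the tested members, against 35.1% of all 27486 tested genes, of which 14.4% rose and 20.7% fell. Among the 42 members that reached a mean of 10, 12 rose and 6 fell, or 42.9%, against 50.4% of all genes at that level, of which 20.1% rose and 30.3% fell. The libraries of the groups did not overlap for 33 of these 42, with No glucose above Ctrl for 21 and below it for 12, against a background of 77.8% of genes at that level, 36.4% above and 41.5% below. The median log2 fold change of the 42 was 0.20, against -0.03 for all genes at that level. Each fit that leaves out 1 library keeps only 1 in that group, so a call can be lost there through the smaller sample alone. Leaving out CTRL_7 gave 7 risen and 3 fallen members, beside 7.46% and 12.2% of all tested genes (19.7% in all). Leaving out CTRL_8 gave 6 and 5, beside 7.44% and 14.6% (22% in all). Without ONG_9 the counts were 12 and 7, beside 15.2% and 23.3% (38.6% in all), and without ONG_10 they were 10 and 7, beside 11% and 20.7% (31.8% in all). With DESeq2 8 members rose and 4 fell, beside 13.6% and 27.2% of all genes with an adjusted p (40.8% in all). With library totals 16 rose and 5 fell, beside 22.2% and 13.9% (36.1% in all). No label states whether libraries of a group came from separate cultures, and the p-values then cover a spread that may be technical. In a bulk sample, fewer cells that express a gene and less RNA per cell cannot be told apart.

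**Figure D2:**
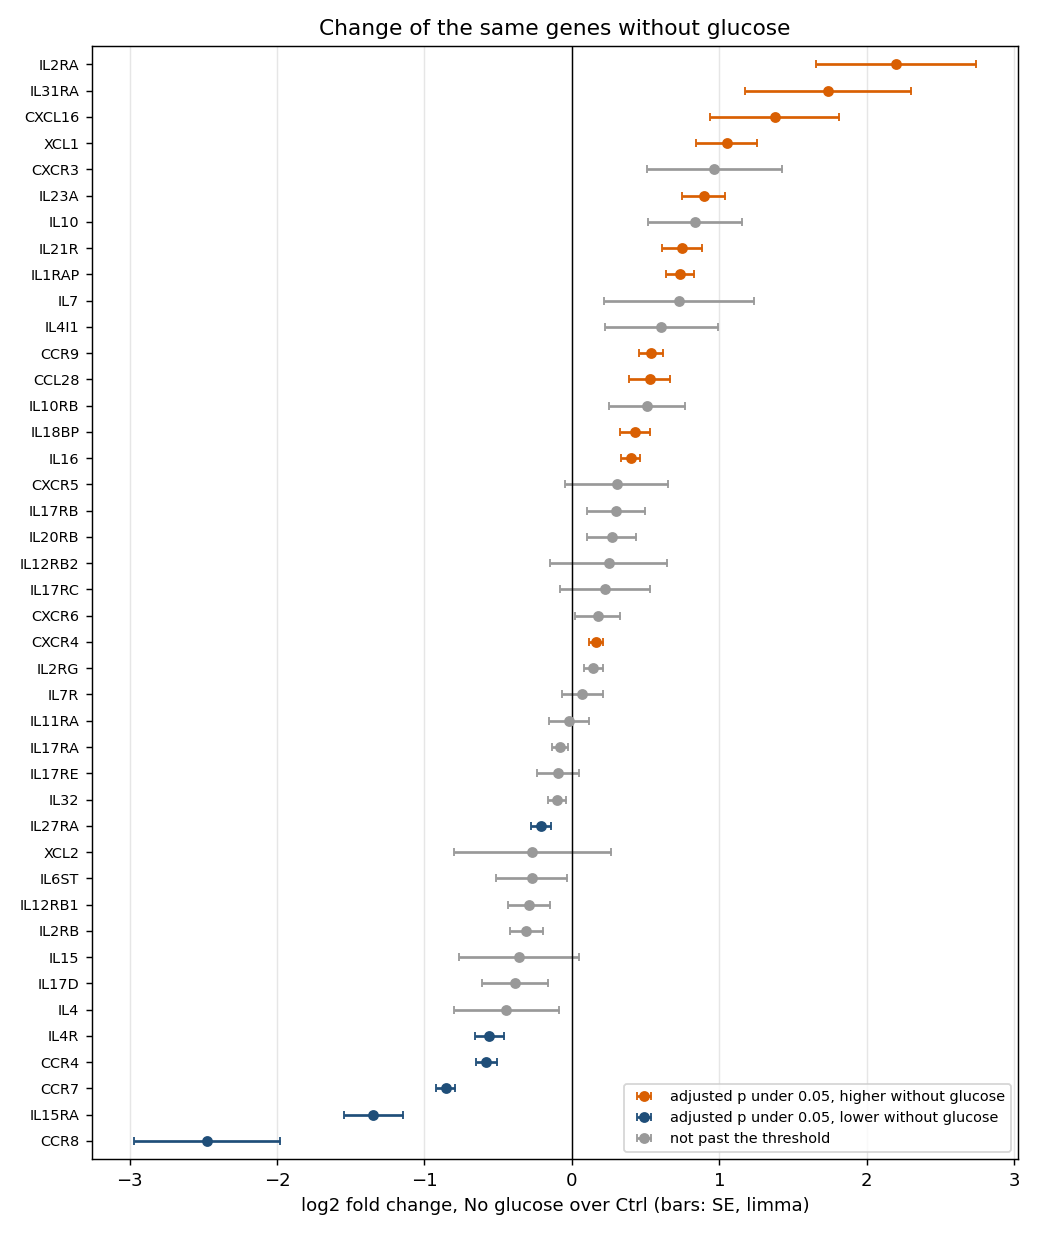
log2 fold change of No glucose over Ctrl with its SE (limma) for the 42 genes that reached a mean of 10 in a group, sorted, with the colour giving the call. The 12 risen genes run up to IL2RA at 2.20 and the 6 fallen genes down to CCR8 at -2.48.

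Chemokine receptors moved in both directions, with CCR7, CCR4 and CCR8 lower and CCR9 and CXCR4 higher. CCR7, which brings T cells to lymph nodes along CCL19 and CCL21, had 1061 and 1085 normalized counts in No glucose libraries and 1985 and 1903 in Ctrl libraries. The groups lay far apart beside the gap within each. Its log2 fold change was -0.86 ± 0.07 (SE, n = 2 a group; limma, adjusted p = 1.8e-06). CCR4, the receptor for CCL17 and CCL22 on skin-homing and type 2 helper T cells, had 1180 and 1073 in No glucose and 1722 and 1645 in Ctrl (-0.58 ± 0.07, limma adjusted p = 7.1e-05). CCR9, which directs T cells to the thymus and the gut along CCL25, went the other way, with 799 and 833 in No glucose and 576 and 548 in Ctrl (0.54 ± 0.08, limma adjusted p = 0.00025). Each of these 3 genes passed the threshold under every one of the 12 alternative fits.

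CCR8, the CCL1 receptor of some regulatory and type 2 T cells, was close to the limit of detection without glucose. It had 1 and 2 reads in ONG_9 and ONG_10, 1.52 and 2.81 normalized counts, against 52 and 11 reads in CTRL_7 and CTRL_8, 17.9 and 14.7 normalized counts. The ratio of the pooled normalized reads was 0.127 (exact 95% interval 0.0255 to 0.388, counting error only), and the limma adjusted p was 0.0021, or 0.063 without CTRL_7. CXCR4 had 18527 and 17762 normalized counts in No glucose and 16282 and 16055 in Ctrl, a log2 fold change of 0.17 ± 0.05 with adjusted p = 0.019 (limma). The groups did not overlap, but the call was lost without CTRL_7 and without CTRL_8, fits that keep 1 Ctrl library. The log2 fold change was 0.18 and 0.16 in these fits. Of the receptors that did not pass the threshold, CXCR6, which binds the membrane-anchored chemokine CXCL16, averaged 135 and 119 normalized counts in the No glucose and Ctrl groups. CXCR3, an effector T cell receptor, averaged 12.3 and 5.59 with adjusted p = 0.13 (limma). CXCR5 averaged 15.3 and 12.2, but 88.6% of its exonic bases overlap BCL9L on the opposite strand, and the strand used in counting is not given, so its level is uncertain. CCR10 stayed under a mean of 10.

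Some ligands of these receptors were detected and others were not. CXCL16, the CXCR6 ligand, averaged 16.0 normalized counts in No glucose and 5.78 in Ctrl, and CCL28, a CCR10 ligand, 159 and 110. Both rose. CCL17, a CCR4 ligand, averaged only 0.70 and 2.02. CXCL12, CCL19, CCL21 and CCL22, ligands of CXCR4, CCR7 and CCR4, had 0 reads in all libraries. CCL25, the CCR9 ligand, had 1.52 and 2.81 normalized counts in No glucose and 5.50 and 8.03 in Ctrl and was not called (limma adjusted p = 0.11). ACKR3, an atypical receptor that takes up CXCL12 and lies outside the symbol pattern, fell, with 68.2 and 50.5 normalized counts in No glucose and 140 and 140 in Ctrl. Its log2 fold change was -1.24 ± 0.18 (limma adjusted p = 0.00021), while CXCR4 rose by 0.17 on the same scale.

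**Figure D3:**
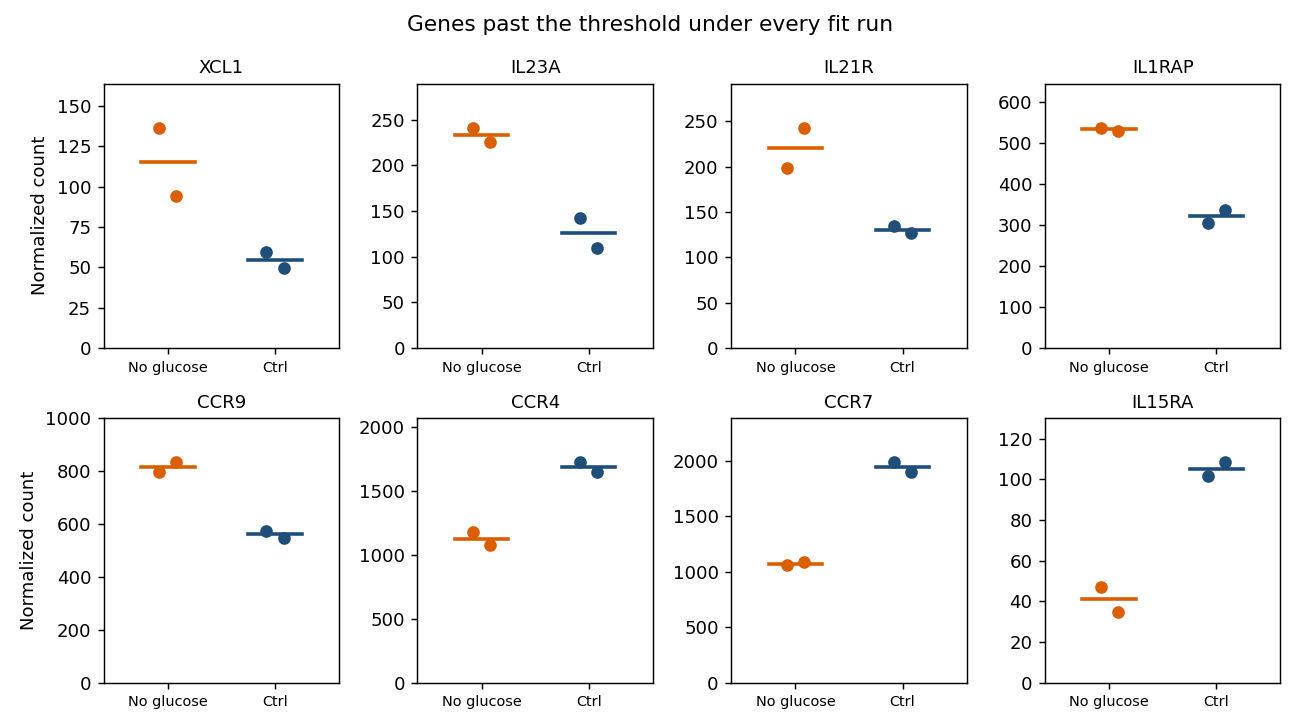
Normalized count in each library (points, No glucose left and Ctrl right, mean as a line) of the 8 genes that passed the threshold in all 13 fits, each panel from 0. XCL1, IL23A, IL21R, IL1RAP and CCR9 lie higher in the No glucose libraries, and CCR4, CCR7 and IL15RA lie lower, with no overlap between groups.

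The receptors of the common gamma chain family were split as well. The gamma chain itself, IL2RG, had 3157 and 2871 normalized counts in No glucose and 2775 and 2669 in Ctrl, and its log2 fold change of 0.15 ± 0.07 did not pass (limma adjusted p = 0.11). It passed with scaling to library totals (0.0013) and without ONG_10 (0.022). IL15RA, the chain that presents interleukin 15, fell to 47.0 and 35.1 in No glucose, against 102 and 108 in Ctrl. Its log2 fold change of -1.35 ± 0.20 was the deepest fall among members with a mean of at least 20 in a group (limma adjusted p = 0.00025). IL4R, the interleukin 4 and 13 receptor chain, had 326 and 310 in No glucose and 494 and 445 in Ctrl (-0.56 ± 0.10, limma adjusted p = 0.00081, and 0.060 without CTRL_7). IL21R, the receptor for the helper cell cytokine interleukin 21, had 199 and 243 in No glucose and 134 and 127 in Ctrl (0.75 ± 0.14, limma adjusted p = 0.0012). The IL21R antisense transcript overlaps 23.3% of its exonic bases but stood at only 8.11 and 4.07 normalized counts in the No glucose and Ctrl groups.

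IL2RA, the inducible high-affinity chain of the interleukin 2 receptor, was low but higher without glucose. It had 8 and 13 reads in ONG_9 and ONG_10, 12.1 and 18.2 normalized counts, and 12 and 1 reads in CTRL_7 and CTRL_8, 4.12 and 1.34 normalized counts. Its log2 fold change was 2.20 ± 0.54 (limma adjusted p = 0.0079), with 0.067 without CTRL_8 and 0.11 without ONG_10. IL2RB, its partner chain, averaged 189 in No glucose and 234 in Ctrl (limma adjusted p = 0.053), and was called lower by edgeR (0.029) and limma-voom (0.032). IL7R, the interleukin 7 receptor on which early T cells depend, averaged 153 and 146 with a log2 fold change of 0.07 ± 0.14. IL9R, whose product pairs with the gamma chain, had 0 reads in all libraries.

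Among receptors that use gp130 or belong to the IL-12 family, IL27RA and IL31RA passed the threshold, in opposite directions. IL27RA, the interleukin 27 receptor chain, had 1131 and 1200 normalized counts in No glucose and 1376 and 1319 in Ctrl (-0.21 ± 0.07, limma adjusted p = 0.038). This call depended on the scaling, since with library totals the fold change was 0.00 (adjusted p = 0.99), and it was lost with DESeq2 (0.080), without CTRL_7 (0.36) and without CTRL_8 (0.24). IL31RA, part of the interleukin 31 receptor, had 12.1 and 9.82 in No glucose and 4.47 and 1.34 in Ctrl (1.74 ± 0.56, limma adjusted p = 0.033). It was not called without CTRL_8 (0.27), without ONG_9 (0.086), without ONG_10 (0.13), by edgeR (0.065) or with no filter (0.070). IL6ST, which encodes gp130, averaged 39.8 and 47.9, IL11RA 168 and 170, IL12RB1 109 and 134, and IL12RB2 21.8 and 19.9 in the No glucose and Ctrl groups, and none of them passed. IL6R stayed under a mean of 10 and IL23R had 0 reads.

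IL1RAP, the signalling chain shared by the interleukin 1, 33 and 36 receptors, rose, while the chains it pairs with had 0 or 1 read. It had 538 and 530 normalized counts in No glucose and 306 and 337 in Ctrl, a log2 fold change of 0.73 ± 0.09 (limma adjusted p = 8.2e-05). IL1R1 had 0 reads in all libraries, and IL1RL1 and IL1RL2, the interleukin 33 and 36 receptors, had 1 read each over all 4. In the interleukin 10 receptor family, IL10RB averaged 39.4 and 27.7 and IL20RB 102 and 84.3 in the No glucose and Ctrl groups, while IL20RA and IL22RA1 had 0 reads and IL10RA had 3 and 4 reads in all. Neither IL10RB nor IL20RB passed the threshold.

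None of the IL-17 receptor chains passed. IL17RA, the chain common to that family, had 3716 and 3779 normalized counts in No glucose and 4001 and 3929 in Ctrl (-0.08 ± 0.05, limma adjusted p = 0.29). Its libraries did not overlap, limma-voom called it lower (adjusted p = 0.030), and its fold change was 0.13 with library totals. IL17RE averaged 143 and 152, IL17RB 64.6 and 52.0, and IL17RC 21.1 and 18.0 in the No glucose and Ctrl groups. IL17RD and IL17REL were below a mean of 10.

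Of the 33 ligands tested 7 rose and none fell, or 21.2% called, against 14.4% of all tested genes risen and 20.7% fallen. Without CTRL_7 2 rose (7.46% of all genes), without CTRL_8 3 (7.44%), and with DESeq2 3 (13.6%). A fallen ligand appeared in 3 of the alternatives, IL32 with limma-voom and without ONG_10, and IL36A without ONG_9. IL23A, the p19 subunit of interleukin 23, had 241 and 226 normalized counts in No glucose and 143 and 110 in Ctrl. Both No glucose values lay above both Ctrl values, with a log2 fold change of 0.89 ± 0.15 (limma adjusted p = 0.00052). Its obligate partner, IL12B, had 1 read in No glucose and 4 in Ctrl over all libraries. XCL1, lymphotactin, which attracts cross-presenting dendritic cells, had 136 and 94.0 in No glucose and 59.4 and 49.5 in Ctrl (1.05 ± 0.21, limma adjusted p = 0.0020). XCL2, a near-identical neighbour that can share reads with XCL1, had 6.06 and 9.82 in No glucose and 5.50 and 16.1 in Ctrl, so the split between the 2 genes is uncertain. XCR1, their receptor, had 0 reads.

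IL16, a CD4-binding cytokine cut from a larger T cell protein, had 2547 and 2395 normalized counts in No glucose and 1853 and 1897 in Ctrl (0.40 ± 0.06, limma adjusted p = 0.00042, and 0.053 without CTRL_7). STARD5 overlaps 36% of its exonic bases on the opposite strand and averaged only 38.8 and 29.5. CCL28, a mucosal chemokine that binds CCR10 and CCR3, had 149 and 170 in No glucose and 110 and 110 in Ctrl (0.53 ± 0.14, limma adjusted p = 0.012). That call was lost without CTRL_7 (0.12), CTRL_8 (0.11) or ONG_10 (0.067) and with DESeq2 (0.090). CXCL16 had 15.2 and 16.8 in No glucose and 7.56 and 4.01 in Ctrl (1.37 ± 0.44, limma adjusted p = 0.031). It was not called without CTRL_7 (0.058), CTRL_8 (0.25) or ONG_10 (0.14), by DESeq2 (0.23) or with no filter (0.070). IL18BP, the secreted inhibitor of interleukin 18, had 340 and 333 in No glucose and 257 and 242 in Ctrl (0.43 ± 0.10, limma adjusted p = 0.0062, but 0.074 without CTRL_7 and 0.13 without CTRL_8). NUMA1 overlaps 15.6% of its exonic bases on the opposite strand and averaged 5496 in No glucose and 3887 in Ctrl; its part in the IL18BP value was not tested.

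Of the other interleukins that reached a mean of 10, IL32, an intracellular and secreted cytokine of T and NK cells, had 2928 and 3161 normalized counts in No glucose and 3272 and 3266 in Ctrl (-0.10 ± 0.06, limma adjusted p = 0.22). It was called lower by limma-voom (0.035) and without ONG_10 (0.021). IL10, an anti-inflammatory cytokine, had 39.4 and 29.5 in No glucose and 14.4 and 24.1 in Ctrl, with adjusted p = 0.067 in limma and 0.025 in edgeR. IL17D averaged 44.9 and 58.5, IL4 15.5 and 20.7, IL15 12.3 and 16.0, and IL7 10.3 and 5.78 in the No glucose and Ctrl groups. The enzyme gene IL4I1 averaged 15.3 and 9.85. None of these passed. NUP62 overlaps 13.1% of the exonic bases of IL4I1 on the same strand and averaged 2224 and 4097. ATF5 overlaps 2.93% of them on the opposite strand and averaged 730 and 368. ZC2HC1A overlaps 9.49% of the exonic bases of IL7 on the opposite strand and averaged 149 and 176. The part of these neighbours in the low values of IL4I1 and IL7 was not tested.

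The inflammatory cytokines IL1B and CXCL8 were barely detected, and passed the threshold on a handful of reads. IL1B had 5 and 3 reads in ONG_9 and ONG_10, and 1 and 0 in CTRL_7 and CTRL_8, although CTRL_7 was the deepest library. The pooled ratio was 21.3 with an exact 95% interval from 2.86 to 947 (limma adjusted p = 0.017, from 0.062 to 0.080 when CTRL_7, CTRL_8 or ONG_9 was left out). CXCL8, the neutrophil chemokine, had 3 and 6 reads without glucose and 2 and 1 in Ctrl, a pooled ratio of 8 with an interval from 2 to 45.9 (limma adjusted p = 0.044). It was not called without CTRL_7 (0.20), CTRL_8 (0.095) or ONG_10 (0.13), nor with no filter (0.061) or a pseudocount of 0.5 (0.051). IL6, IL2, IL17A, CCL2, CCL3 and CCL5 had at most 1 read over all 4 libraries.

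**Figure D4:**
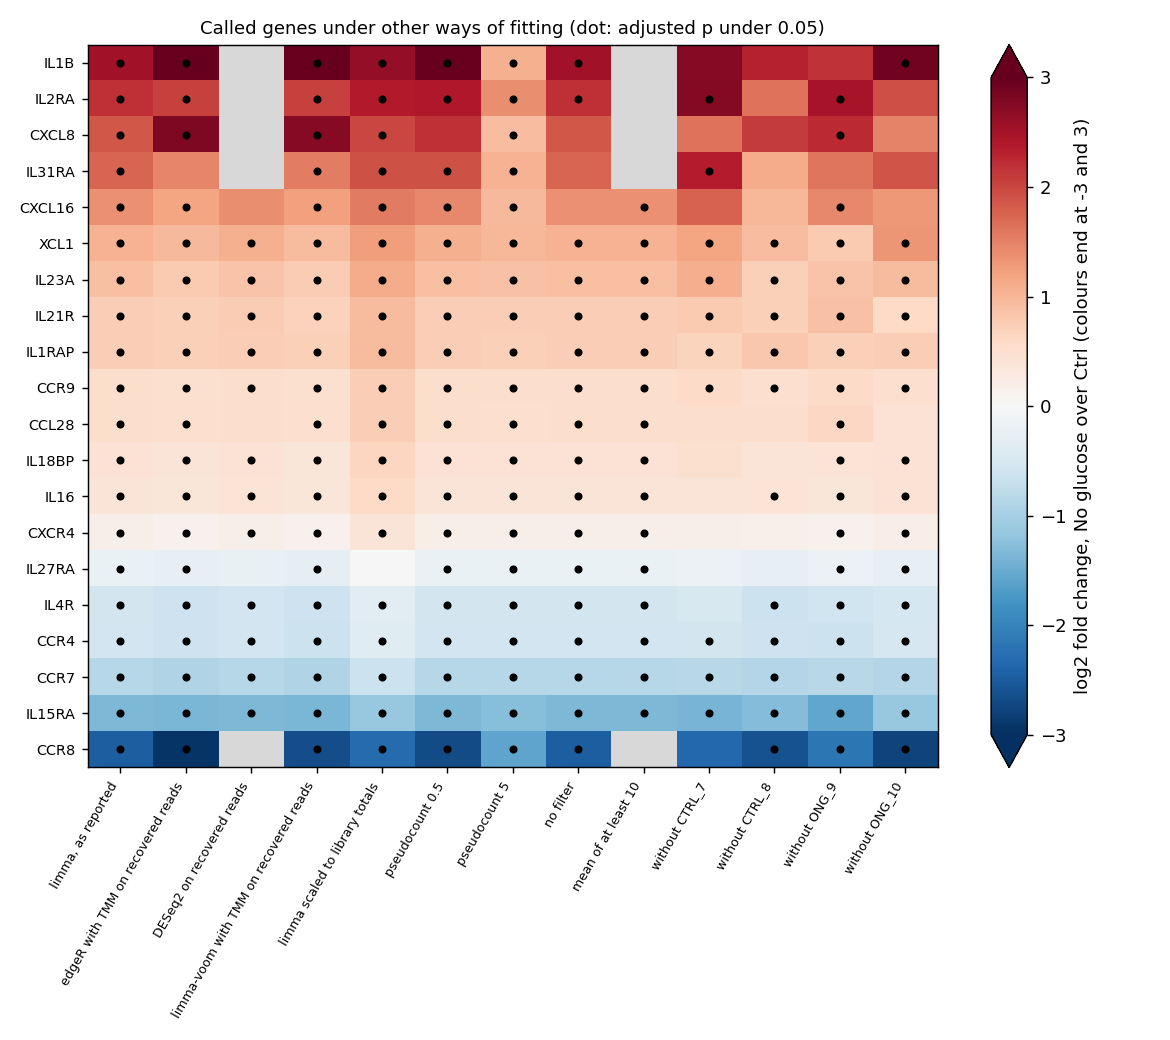
log2 fold change of the 20 called genes (rows) in limma as reported and in 12 alternative fits (columns), with a dot where the adjusted p was under 0.05 and grey where a gene was not tested or had no adjusted p. The rows of XCL1, IL23A, IL21R, IL1RAP, CCR9, CCR4, CCR7 and IL15RA carry a dot in every column, and the pale row of IL27RA loses its colour under library totals.

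Promoters are printed for 4 of the 8 genes called in every fit, the pair with the deepest falls and the pair with the largest rises among those with an entry, to show the sequence in front of genes that moved in opposite directions. They are RefSeq windows on GRCh38.p14, 250 bases before to 50 after the annotated start, in gene orientation, at chr10:5977997-5978296 on the minus strand (IL15RA), chr3:32951394-32951693 (CCR4), chr16:27427021-27427320 (IL21R) and chr12:56338634-56338933 (IL23A), these 3 on the plus strand. Capitals mark a match to 1 of 5 motifs searched on either strand, TGANTCA (AP-1), TTCNNNGAA (the STAT or GAS element), CACGTG (E-box), a kappaB element of 10 bases and TGACGTCA (CRE).
IL15RA: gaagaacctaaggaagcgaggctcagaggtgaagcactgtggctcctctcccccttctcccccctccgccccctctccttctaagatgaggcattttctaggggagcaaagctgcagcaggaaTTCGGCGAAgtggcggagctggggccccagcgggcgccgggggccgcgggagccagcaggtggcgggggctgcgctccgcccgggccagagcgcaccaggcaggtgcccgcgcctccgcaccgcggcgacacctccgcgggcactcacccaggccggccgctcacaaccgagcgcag
CCR4: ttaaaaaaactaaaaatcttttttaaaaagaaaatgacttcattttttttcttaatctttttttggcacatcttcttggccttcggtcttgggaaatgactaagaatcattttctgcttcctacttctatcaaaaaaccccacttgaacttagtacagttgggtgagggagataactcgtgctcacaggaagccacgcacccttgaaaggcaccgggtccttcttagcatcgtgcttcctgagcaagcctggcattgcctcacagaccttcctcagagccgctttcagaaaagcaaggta
IL21R: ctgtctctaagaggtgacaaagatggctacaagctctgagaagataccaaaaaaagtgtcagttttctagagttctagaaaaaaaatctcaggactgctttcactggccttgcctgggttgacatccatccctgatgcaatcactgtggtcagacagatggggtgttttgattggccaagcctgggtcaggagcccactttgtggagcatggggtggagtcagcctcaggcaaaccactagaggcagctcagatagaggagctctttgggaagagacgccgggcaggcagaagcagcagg
IL23A: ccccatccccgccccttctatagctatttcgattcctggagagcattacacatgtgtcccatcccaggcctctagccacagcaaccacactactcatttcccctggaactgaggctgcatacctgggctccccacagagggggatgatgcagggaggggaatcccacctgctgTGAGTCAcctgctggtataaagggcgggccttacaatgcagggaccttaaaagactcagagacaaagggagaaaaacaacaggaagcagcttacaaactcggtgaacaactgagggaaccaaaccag
The match in IL15RA is a TTCNNNGAA element that begins 127 bases before the start, and the match in IL23A is a TGANTCA element 77 bases before it. No match lay in the CCR4 and IL21R windows. Of the 33 members at a mean of 10 with a promoter entry, 3 held TTCNNNGAA (9.09%), against 7.66% of 35116 promoters of the same length, and 1 held TGANTCA (3.03%), against 7.71%. The form of the kappaB element searched was in 3, IL32, IL4R and IL27RA (9.09% against 1.91%). CACGTG was in 1 (7.26% of all promoters) and TGACGTCA in 1 (1.85%). With 5 motifs searched, each share of the 33 rests on 1 to 3 genes. The 35116 promoters were not limited to genes at a mean of 10, and no difference in share was tested. A match is a run of letters and no evidence of binding.

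The genes that carry the signal further were read from 7 lists with 73 tested genes, of which 17 rose and 21 fell, against 14.4% and 20.7% of all tested genes, or 20.1% and 30.3% of those at a mean of 10. Under library totals the counts were 29 risen and 12 fallen, against 22.2% and 13.9% of all genes, so the balance of these lists depended on the scaling. Of 4 JAK kinases, JAK1 rose (0.23 ± 0.05) and TYK2, the kinase of IL12RB1, fell (-0.41 ± 0.13, limma adjusted p = 0.025). JAK1 was not called without CTRL_7 (0.21) or CTRL_8 (0.20), nor TYK2 with library totals (0.34), with DESeq2 (0.23) or without CTRL_7 (0.26). Among the STAT factors STAT4 and STAT3 rose and STAT5A fell. STAT4, the transducer of interleukins 12 and 23, had 53.1 and 43.5 normalized counts in No glucose and 6.87 and 5.35 in Ctrl, a log2 fold change of 2.79 ± 0.33 (limma adjusted p = 4.3e-05) that passed in every fit. STAT5A, which acts behind the gamma chain and interleukin 7, fell in every fit too (-0.49 ± 0.06), to 3257 and 3540 in No glucose, against 4768 and 4782 in Ctrl. The more abundant STAT5B averaged 8061 in No glucose and 8148 in Ctrl and was not called (-0.02 ± 0.05, limma adjusted p = 0.85). STAT3 rose by 0.29, but was not called without CTRL_7 (0.094) or CTRL_8 (0.092).

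Genes that transmit or end chemokine receptor signals were counted as 10 fallen and 2 risen of 17, with a median log2 fold change of -0.37, beside 0.04 for all tested genes. Of all genes at a mean of 10, which 15 of these 17 reached, 30.3% fell and 20.1% rose. With library totals 7 fell and 4 rose (13.9% and 22.2% of all genes), and without CTRL_7 4 fell and 1 rose (12.2% and 7.46%). ARRB2, a beta-arrestin, had 1971 and 1929 normalized counts in No glucose and 3288 and 3313 in Ctrl (-0.76 ± 0.06, limma adjusted p = 1.8e-06), and GRK6, a receptor kinase, 1069 and 1392 against 2083 and 1917 (-0.71 ± 0.11). PIK3R5, a regulatory subunit of the PI3K gamma that G protein subunits activate, rose (0.81 ± 0.08), and so did its catalytic subunit PIK3CG (0.17 ± 0.06, limma adjusted p = 0.041). The PIK3CG call was lost without CTRL_7 (0.33), without CTRL_8 (0.41), and with edgeR (0.057), DESeq2 (0.051) and no filter (0.059).

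Among 14 adaptors of the IL-1 and IL-17 receptors 7 rose and 2 fell. Of all genes at a mean of 10, which 12 of these 14 reached, 20.1% rose and 30.3% fell. The counts were 3 and 1 without CTRL_7 (7.46% and 12.2% of all genes) and 4 and 2 without CTRL_8 (7.44% and 14.6%). PELI1, a ubiquitin ligase of that pathway, rose by 0.54 ± 0.09, with adjusted p = 0.00060 in limma and 0.0505 without CTRL_7. IRAK2, a kinase of the IL-1 receptor complex, averaged 7.35 normalized counts in No glucose and 1.37 in Ctrl with limma adjusted p = 0.0498, and was called under 2 of 12 alternatives. IRAK1, its relative, fell in every fit (-0.60 ± 0.10), and TAB1 changed by -0.32 ± 0.10, with adjusted p = 0.45 under library totals, 0.34 without CTRL_7 and 0.050004 without ONG_10. In the list for processing and secretion of interleukins 3 of 9 fell and 1 rose. Of all genes at a mean of 10, which 8 of these 9 reached, 30.3% fell and 20.1% rose. With library totals 2 fell and 4 rose (13.9% and 22.2% of all genes). The median log2 fold change of this list was 0.04, against 0.07 without CTRL_7 and -0.10 without CTRL_8. GSDMD, the pore protein through which interleukin 1 leaves the cell, had 109 and 150 normalized counts in No glucose and 351 and 266 in Ctrl (-1.25 ± 0.17), and PYCARD, the inflammasome adaptor, 123 and 198 against 291 and 336 (-1.0 ± 0.19). Both fell in every fit. PCSK7, a proprotein convertase, was higher by 0.28 ± 0.08 but not without CTRL_7 (adjusted p = 0.11), CTRL_8 (0.25) or ONG_10 (0.069) in limma.

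Of 19 tested cytokine and receptor genes that lack an IL symbol 4 rose and 2 fell, against 14.4% and 20.7% of all genes, or 5 and 0 with library totals, against 22.2% and 13.9%. OSMR, the oncostatin M receptor and partner of IL31RA, averaged 60.7 normalized counts in No glucose and 35.7 in Ctrl (0.74 ± 0.21, limma adjusted p = 0.018), and its ligand OSM 86.7 and 134 (-0.65 ± 0.20, limma adjusted p = 0.025). TSLP, an epithelial-type cytokine, averaged 66.9 and 41.2 (0.69 ± 0.21), and SIGIRR, an inhibitory member of the IL-1 receptor family, 700 and 1007 (-0.55 ± 0.16). Each of these 4 calls was lost without CTRL_7, at adjusted p from 0.084 for TSLP to 0.22 for OSM, and with DESeq2. With library totals OSM (0.16) and SIGIRR (0.19) were lost too. Without CTRL_8 the adjusted p was 0.11 for OSMR, 0.23 for TSLP and 0.073 for OSM. Without ONG_9 it was 0.060 for OSMR and 0.10 for OSM, and without ONG_10 0.12 for TSLP. Of 3 tested chemokine receptors outside the pattern ACKR3 fell, CCRL2 averaged 161 and 130 and ACKR4 15.6 and 7.83 in the No glucose and Ctrl groups.

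The authors' deposited table, which holds their DESeq2 comparison, gives an adjusted p to 42 of the members and has 12 of them under 0.05, 7 higher and 5 lower. That is 28.6% of the members with an adjusted p, against 37.8% of all genes with one in the same table, 12.5% higher and 25.3% lower. All 12 were called here in the same direction, and they include CCR8, with an adjusted p of 0.046 in the authors' deposited table. Both comparisons used the same 4 libraries, so the shared calls are no independent support. The DESeq2 fit run here gave CCR8 a log2 fold change of -2.91 but no adjusted p.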

How the data were processed

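Total RNA libraries of 4 samples were compared, 2 No glucose and 2 Ctrl. The submitters' processing notes name STAR 2.6.0c, RSEM 1.3.0, DESeq2 1.18.1 and the build hg38, per the labels; the annotation release and counting strand are not given in the sources used here. The signal values are normalized counts that the authors deposited, gene counts divided by 1 size factor per library. The authors also deposited the log2 fold changes, score values (test statistics) and p-values of their own comparison, which are printed only where the authors' deposited table is named; all other fold changes and p-values were computed here. Columns name the group but no replicate number.

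Here each library was divided by its step of 1 read, and 100% of values above 0 lay within 0.01 of a whole read. The design named edgeR for counts and limma for normalized values, so limma 3.58.1 (trend, R 4.3.3) on log2(normalized count + 1) was the main test, two-sided, for genes with a mean of at least 1, and edgeR 4.0.16, DESeq2 1.42.0 and limma-voom on the recovered reads were alternatives. The others were library totals as scaling, pseudocounts of 0.5 and 5, no filter, a mean of at least 10, and leaving out each library. Scripts were tested on simulated data. Repeated identifiers were counted once. Coordinates, exon lengths and overlaps come from GENCODE 29. All members with a mean of 10 in a group are named, as are lower members that passed, and up to 2 called genes per direction of each list. Members and lists were chosen with earlier results of these data known. Values of 2 of the genes covered by these rules are not reported here.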

Additional observations from a re-analysis of the deposited data

How the results depend on the processing

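Of 20 called members 8 were called under all 12 alternatives. Across the 66 genes tracked, 671 of 775 values under alternatives kept their direction and side of the threshold, 80 lost the call and 11 gained one. DESeq2 called 8 members higher, against 14 in limma, and 4 lower; leaving out 1 library gave 6 to 12 higher and 3 to 7 lower, and 6 to 21 higher and 9 to 24 lower among the pathway list genes. Library totals shifted the median log2 fold change of all tested genes to 0.24, against 0.04, and gave 29 pathway list genes higher and 12 lower, against 17 and 21. Under library totals the log2 fold changes of IL27RA (0.0012), IL32 (0.11), IL17RA (0.13), IL17RE (0.11) and IL11RA (0.19) turned positive; among these 5, limma as reported had called IL27RA. XCL2 turned to 0.20 with limma-voom. Leaving out 1 library gave fold changes of -0.96 to 0.43 for XCL2, -0.231 to 0.0418 for IL17RE, -0.0464 to 0.189 for IL7R, -0.15 to 0.11 for IL11RA and -0.35 to 0.85 for IL12RB2, none of them called. The cause of these shifts was not tested. The count of members at a mean of 10 in a group was 42 with library totals, 40 to 43 without 1 library, 50 at a mean of 5 and 32 at a mean of 20. No paired analysis was possible because the table's columns carry no replicate numbers. Depth limits the low members: under about 10 normalized counts a value rests on a few reads in 3 of the 4 libraries.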
